A study of Mus musculus with 9 samples.

Results

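Mature neurons (mNeur) were the cells that the deposited table of cells annotates under that name, 1 of 16 annotated types, and they made up 398 of the 72543 brain cells profiled by droplet-based single-cell RNA sequencing. The 9 libraries came from male C57BL/6J mice in 3 groups of 3 libraries each. Young adult mice were 2 to 3 months old. Aged mice and exenatide-treated aged mice were 18 to 20 months old. Exenatide, an agonist of the glucagon-like peptide-1 receptor used against type 2 diabetes, was given by intraperitoneal injection at 5 nmol/kg/day, from an age of 17 to 18 months and for 4 to 5 weeks before sequencing; the labels name no vehicle for the other groups. Libraries are numbered 1, 2 and 4 in each group, and each number is 1 batch in the deposited table. Every library carries a mice number of 3, without a statement of how cells of several mice were combined. The study's text gives another number of mice for the young adult and aged groups. The *P*-values below therefore measure the spread between these libraries only. The brains, without the cerebellum, were dissociated by a protocol made for vascular cells, and the mNeur are therefore the neurons that came through that protocol and the filters on cells, not a census of brain neurons.

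Mature neurons fire action potentials and release transmitter from vesicles at synapses. Release depends on the SNARE proteins, among them SNAP-25, and on synaptotagmin-1, the calcium sensor encoded by *Syt1*. Excitatory neurons load glutamate into vesicles through the transporters encoded by *Slc17a6*, *Slc17a7* and *Slc17a8*, whereas inhibitory neurons make GABA with the enzymes encoded by *Gad1* and *Gad2* and load it through the transporter encoded by *Slc32a1*. Immature neurons of the adult brain, which arise mainly in the subventricular zone and the hippocampus, carry doublecortin (*Dcx*) and transcription factors of the SOX and DLX families instead.

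The mNeur were sparse and uneven over libraries. The young adult libraries 1, 2 and 4 held 11, 93 and 103 mNeur, the aged libraries 1, 41 and 33, and the exenatide-treated aged libraries 11, 41 and 64. These were 0.149%, 1.02% and 0.686% of all cells of the young adult libraries, 0.107%, 0.691% and 0.600% of the aged libraries, and 0.115%, 0.553% and 0.549% of the exenatide-treated aged libraries. Batch 1 had the smallest share in each group. Because aged library 1 held a single mNeur, it enters no level per library and no fit, which rest on 8 libraries, 2 of them aged; counts over all 398 mNeur, and the cells and UMIs of clusters, include that cell. The summed unique molecular identifiers (UMIs) of the mNeur ranged from 20246 to 191740 per library, and the median mNeur held 1615.5 UMIs, against 995 in immature neurons (imNeur, 889 cells). Of the 398 mNeur barcodes, 25 were also present in another library, where none belonged to an mNeur. Over all cells, 2209 barcodes occurred in more than 1 library.

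**Figure D1:**
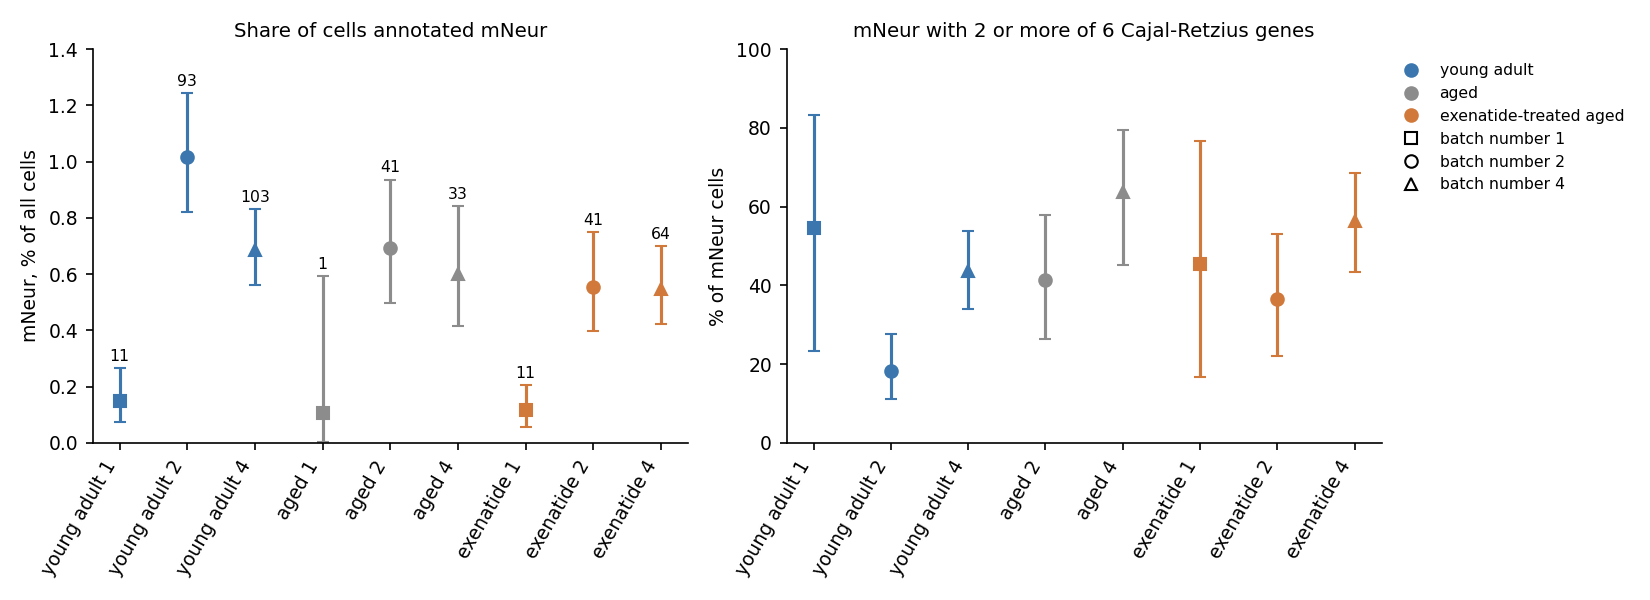
Left, the share of all cells annotated mNeur (%) in each of the 9 libraries, with the number of mNeur above each point; right, the share of mNeur (%) with a UMI of 2 or more of 6 genes known from Cajal-Retzius neurons, in the 8 libraries with 10 or more mNeur. Bars are exact binomial 95% intervals, colour is the group and the symbol is the batch; the square symbols of batch 1 lie lowest in the left panel, at 0.107% to 0.149%, and the groups overlap in both panels.

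The annotation was first set against its own markers, *Snap25* (chr2:136713453-136782428 of mm10, plus strand), *Syt1* (chr10:108497650-109010982, minus strand) and *Meg3* (chr12:109541001-109571726, plus strand), a long non-coding RNA of an imprinted locus. *Snap25* was found in 59.8% of mNeur, against 8.21% of imNeur and 1.56% of endothelial cells (median depth 1395 UMIs). *Syt1* was found in 57.5% of mNeur, against 3.15% of imNeur and 0.407% of endothelial cells. *Meg3* was found in 94.5% of mNeur but also in 53.2% of imNeur, 55.6% of oligodendrocyte precursor cells and 39.0% of tanycytes, so of the 3 it separated the type least. All 3 markers were found in 147 mNeur, 2 in 160, 1 in 82 and none in 9, and the cells with none were the shallowest, with a median of 911 UMIs against 2310 UMIs in cells with all 3. *Snhg11*, a small nucleolar RNA host gene that the rule did not use, was found in 89.9% of mNeur and 2.03% of imNeur, but in 30.7% of oligodendrocyte precursor cells.

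Levels were expressed as CPM, the UMIs of a gene after the UMIs summed over the mNeur of a library are scaled to a total of 1000000. *Snap25* was at 516, 989 and 1200 CPM in young adult libraries 1, 2 and 4, at 1383 and 668 CPM in aged libraries 2 and 4, and at 939, 654 and 1027 CPM in exenatide-treated aged libraries 1, 2 and 4. *Syt1* was at 310, 868 and 688 CPM, at 1654 and 501 CPM, and at 198, 953 and 985 CPM in the same order. *Meg3* was at 9254, 9261 and 2832 CPM, at 13030 and 4719 CPM, and at 5285, 8933 and 5524 CPM. For each of the 3 genes the groups overlapped.

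Immature neurons were the type closest in name, and they served to show what mNeur expressed beyond being neuronal. The types had been separated on expression, so the values that follow are a description with no test. Of 15897 genes with a UMI in either type, 195 (1.23%) were higher in each of the 8 mNeur libraries than in any of 8 imNeur libraries, 152 (0.956%) were lower in each, and the mean was higher in mNeur for 9144 (57.5%). *Snap25* averaged 922 ± 294 CPM (SD, n = 8) in mNeur and 76.02 ± 42.9 CPM in imNeur, a ratio of 12.1. *Syt1* averaged 770 ± 461 CPM against 24.3 ± 20.4 CPM, a ratio of 31.6, and *Snhg11* averaged 3607 ± 1811 CPM against 23.6 ± 19.7 CPM, a ratio of 153. These 3 genes and *Thy1*, which encodes a surface glycoprotein of projection neurons, were the 4 of 20 neuron identity genes without overlap in this direction, and 14 of the 20 had the higher mean in mNeur. *Tubb3*, a neuronal tubulin often used to mark neurons, went the other way: it was at 184 ± 68.4 CPM in mNeur and 1594 ± 413 CPM in imNeur, with no overlap. The same held for the RNA-binding protein gene *Elavl3*.

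Genes of neuronal immaturity were low in mNeur. Of 20 such genes 18 had the lower mean in mNeur and 15 did not overlap, beside 0.956% of all genes. *Dcx* was at 34.2 ± 24.7 CPM in mNeur and 826 ± 397 CPM in imNeur. *Sox11*, which encodes a transcription factor of neuronal differentiation, was at 59.98 ± 30.99 CPM against 2322 ± 355 CPM, and *Cd24a*, a surface marker of neuroblasts, was at 30.2 ± 39.3 CPM against 1228 ± 367 CPM. The exceptions were *Tbr1* and *Neurod1*, transcription factors of the glutamatergic lineage, which had the higher mean in mNeur, *Tbr1* without overlap. Among genes at 100 CPM or more in imNeur, the largest ratios over mNeur were those of *Cd1d1* (109 UMIs in imNeur and none in mNeur, at least 28.3-fold higher against a floor of 3 counts over all mNeur libraries), *Dlx6os1* (345), *Sp9* (345), *Sp8* (335), *Igfbpl1* (328), *Dlx2* (81.7), *Ccnd2* (62.4), *Dlx5* (57.4), *Pou3f4* (52.2) and *Cd24a* (40.6). *Sp8*, *Sp9*, *Dlx2*, *Dlx5* and *Pou3f4* encode transcription factors of forebrain development, and *Ccnd2* a cyclin of dividing progenitors.

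**Figure D2:**
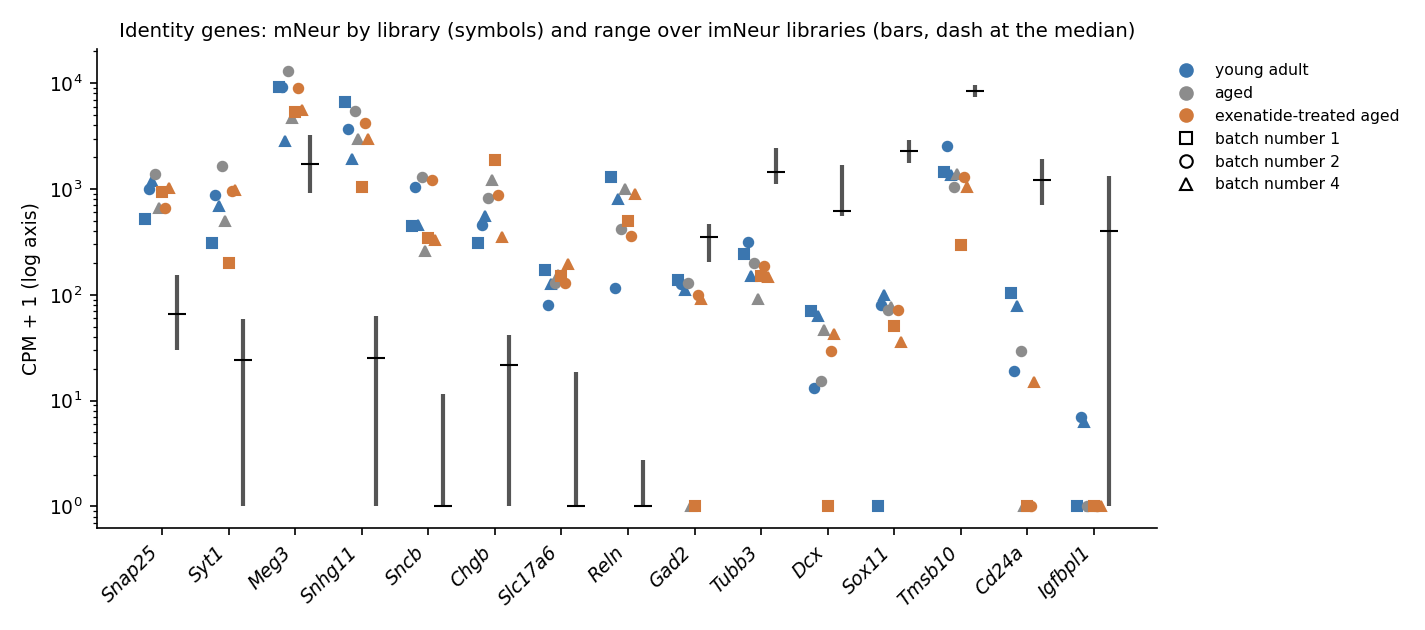
CPM + 1 on a log axis for 15 identity genes. Symbols are the 8 mNeur libraries (colour, group; shape, batch) and bars span the lowest to the highest of 8 imNeur libraries, with a dash at the median; *Snap25*, *Syt1*, *Snhg11* and *Reln* lie above the bars in all 8 mNeur libraries, and *Tubb3*, *Dcx*, *Sox11*, *Tmsb10* and *Cd24a* lie below them.

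The machinery of the synapse followed the identity genes. Of 26 genes of synaptic vesicles and transmitter release, 25 had the higher mean in mNeur and 9 did not overlap, among them *Napb*, *Snap25*, *Sncb*, *Sv2a*, *Syn1*, *Syt1*, *Syt4* and *Vamp2*. *Sncb*, which encodes beta-synuclein, averaged 674 ± 435 CPM in mNeur and 3.49 ± 4.92 CPM in imNeur, and *Vamp2*, the vesicle SNARE, averaged 340 ± 96.0 CPM against 67.1 ± 31.0 CPM. All 27 genes of sodium, potassium and calcium channels had the higher mean in mNeur, and 2 did not overlap (beside 1.23% of all genes). *Kcnma1*, the large-conductance potassium channel, was detected in 24.9% of mNeur and ranged from 0 to 295 CPM over libraries. Of 20 glutamate receptor and postsynaptic genes 19 had the higher mean, led by *Gria2*, an AMPA receptor subunit, at 677 ± 221 CPM against 274 ± 159 CPM. Of 15 GABA receptor genes 14 had the higher mean, led by *Gabbr1*, a metabotropic subunit, at 360 ± 180 CPM against 99.2 ± 74.6 CPM. All 10 genes of dense-core granules and peptide processing did as well, led by *Pcsk1n*, at 1408 ± 1071 CPM against 176 ± 166 CPM. Over all genes the share with the higher mean was 57.5%. Genes of the cytosolic ribosome went the other way, with the lower mean in mNeur for 70 of 84, and so did all 13 mitochondrially encoded genes, whereas 77 of 91 nuclear genes of the respiratory chain had the higher mean. The mitochondrial share of UMIs differed between batches 2 and 4. It was 2.04%, 2.17% and 2.09% in the mNeur of batch 2, given as young adult, aged and treated. In the same order it was 7.68%, 7.28% and 9.11% in those of batch 4. In batch 1 it was 4.49% in young adult and 3.00% in treated mNeur.

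The genes with the largest ratio of mNeur to imNeur, among those at 100 CPM or more in mNeur, did not belong to the general machinery. No UMI was found in imNeur for 12 of the 15, for which the ratio is a lower bound against 3 counts over all imNeur libraries. *Avp*, which encodes vasopressin, was at least 598-fold higher in mNeur. *Cga*, the shared alpha subunit of the glycoprotein hormones, was at least 87.1-fold higher, but all its 368 UMIs came from 9 cells of young adult library 4. *Lhx1* and its neighbour on the other strand, *Lhx1os*, were at least 66.6-fold and 70.7-fold higher, and *Trp73*, which encodes a p53 family member, at least 47.1-fold. *C1ql3* (51.1), *Arfgef3* (47.8), *Rasgrf1* (41.4), *5330417C22Rik* (39.0), *Gnb3* (59.9) and *Spink4* (59.3) were also among the 12. A single imNeur UMI was found for *Reln*, *Pde6g* and *Slc24a2*. *Reln* encodes reelin, the secreted glycoprotein that guides neuronal layering, and was found in 158 mNeur (39.7%) and 1 imNeur (0.112%).

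Transmitter classes were read from 6 genes: a cell was glutamatergic with 1 or more UMIs of *Slc17a6*, *Slc17a7* or *Slc17a8* and none of *Gad1*, *Gad2* or *Slc32a1*, and GABAergic in the reverse case. By this rule 117 mNeur were glutamatergic, 68 GABAergic, 2 had genes of both classes and 211 had none. Depth differed between these sets, with medians of 2013, 2255, 4007 and 1326 UMIs, so the unclassed cells were the shallower ones, and after each cell was thinned to 500 UMIs only 47 glutamatergic and 34 GABAergic cells remained. Per gene, 0.0245% to 0.319% of endothelial cells had a UMI of the 6 genes, and *Gad1* was found in 3.73% of oligodendrocyte precursor cells. The share of background UMIs among the class calls was not measured. Within the glutamatergic transporters, 60 mNeur had *Slc17a6* without *Slc17a7*, 45 had *Slc17a7* without *Slc17a6*, and 13 had both. *Slc17a8* was found in 2 cells. All 3 glutamatergic genes had the higher mean in mNeur than in imNeur and all 3 GABAergic genes the lower one: *Slc17a6* was at 141 ± 34.8 CPM against 3.90 ± 7.31 CPM, and *Gad2* at 86.5 ± 55.6 CPM against 349 ± 90.2 CPM, without overlap in either case.

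Other transmitters were at or near the floor. The cholinergic genes *Chat*, *Slc18a3* and *Slc5a7* were found in 1, 3 and 2 mNeur, all of young adult library 2. Of the dopaminergic genes, *Th* was found in 1 cell and *Slc6a3* in none, and *Ddc*, which other cells also express, in 10. No UMI was found of *Tph2* or *Slc6a4* (serotonergic) or *Slc6a2* (noradrenergic).

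The share of GABAergic among classed mNeur was 43.8% (95% interval 29.5 to 58.8%) in young adult library 2, 42.2% (27.7 to 57.9%) in young adult library 4, 26.3% (9.15 to 51.2%) in aged library 2, 33.3% (9.93 to 65.1%) in aged library 4, 33.3% (14.6 to 57.0%) in exenatide-treated aged library 2 and 29.0% (14.2 to 48.0%) in exenatide-treated aged library 4. The libraries of batch 1 had fewer than 10 classed cells and were left out. The mean was 29.8 ± 4.96% (SD, n = 2) in aged and 43.0 ± 1.08% (n = 2) in young adult libraries, a difference of −13.2 percentage points, with the aged below the young adult libraries, and of −17.4 and −8.89 points within batches 2 and 4. An exact two-sided permutation test gave *P* = 0.3333, the smallest value that 2 against 2 libraries allow, and the intervals of the single libraries overlapped. Exenatide-treated aged libraries averaged 31.2 ± 3.04%, 1.36 points above the aged ones, with 7.02 and −4.30 points within batches (exact permutation *P* = 1).

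Genes that accompany the transmitter class were tested in young adult libraries 2 and 4, the only ones with 10 or more cells of both classes, with the library as a block and the 6 defining genes left out. GABAergic and glutamatergic mNeur differed in 51 of 907 genes (5.62%, FDR-adjusted *P* below 0.05 and absolute *lnFC* above 0.1 by the quasi-likelihood test of edgeR), 22 higher in GABAergic (2.43%) and 29 in glutamatergic cells (3.20%). With 1 residual degree of freedom these calls lean on the spread shared over genes. They were 0 without the library term and 2 by DESeq2, and 31 of 511 genes (6.07%) when 5 libraries with 5 or more cells of each class were used, which include the former 2. Of the 51 genes 27 could be tested there, and 16 were called in both (31.4% of the 51 and 51.6% of the 31).

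Higher in glutamatergic mNeur were the peptide gene *Cck*, at 1659 and 814 CPM in the glutamatergic and 78.6 and 68.7 CPM in the GABAergic cells of libraries 2 and 4 (*lnFC* −2.79 ± 0.35 (SE) for GABAergic minus glutamatergic, edgeR FDR-adjusted *P* = 3.05e-12), and *Nrn1*, an activity-regulated gene of neurite growth, at 460 and 308 CPM with no UMI in the GABAergic cells. The postsynaptic calmodulin-binding gene *Nrgn* was at 3401 and 1592 CPM against 1336 and 91.5 CPM. The other named genes in this direction were *Olfm1*, *Mef2c*, *Clstn1*, *Thy1*, *Dlgap1*, *Tac2*, *Kcnma1*, *Chn1* and *Cyfip2*, with *lnFC* from −1.40 to −2.10. *Mef2c* encodes a transcription factor of cortical excitatory neurons and *Dlgap1* a scaffold of the postsynaptic density. Of the 12 genes, 7 (*Cck*, *Nrn1*, *Clstn1*, *Dlgap1*, *Kcnma1*, *Chn1* and *Cyfip2*) passed the filter on low counts through the glutamatergic sums alone, so a gene at their GABAergic level could be tested only if it was higher in glutamatergic cells. *Tac2* passed through both classes of library 2 and had no UMI in either class of library 4.

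Higher in GABAergic mNeur was *Scg2*, a granin of dense-core granules, at 760 and 1510 CPM against 65.7 and 380 CPM (*lnFC* 1.68 ± 0.28, edgeR FDR-adjusted *P* = 1.35e-06). *Dlk1*, *Tac1*, *Avp*, *Nap1l5* and *Hap1* were also higher, with *lnFC* from 1.01 to 2.25; *Tac1* encodes the precursor of substance P. Also among the 12 genes with the smallest *P* were *Ctss*, *C1qc*, *C1qb*, *Ctsd* and *B2m*. *Ctss* and *C1qb* belong to the microglial marker list, and *C1qc* encodes a complement subunit made by microglia. *Ctss* was at 445 and 824 CPM in GABAergic and 16.4 and 163 CPM in glutamatergic cells. *Ctss*, *C1qc* and *C1qb* were most abundant in cluster 7 of the mNeur, described below, where 8 of 11 classed cells were GABAergic; the part of that cluster in the result was not tested. *Ctss*, *C1qb*, *Dlk1*, *B2m* and *Hap1* passed the filter on low counts through the GABAergic sums alone. In the fit on 5 libraries *Scg2*, *Nap1l5*, *Nrgn*, *Olfm1*, *Mef2c*, *Clstn1* and *Chn1* were called again. *Cck* was not (*lnFC* −1.35, edgeR FDR-adjusted *P* = 0.2255), and in exenatide-treated aged library 4 it was at 759 CPM in GABAergic and 659 CPM in glutamatergic cells. *Avp* was not called either (*lnFC* 2.68, edgeR FDR-adjusted *P* = 0.1844), with no UMI in either class of aged library 2. *C1qc* (0.3258) and *Ctsd* (0.4913) also missed the threshold of the FDR-adjusted *P* by edgeR, and both were lower in GABAergic than in glutamatergic cells of aged library 2 and exenatide-treated aged library 2. The other named genes did not pass the filter on low counts there.

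**Figure D3:**
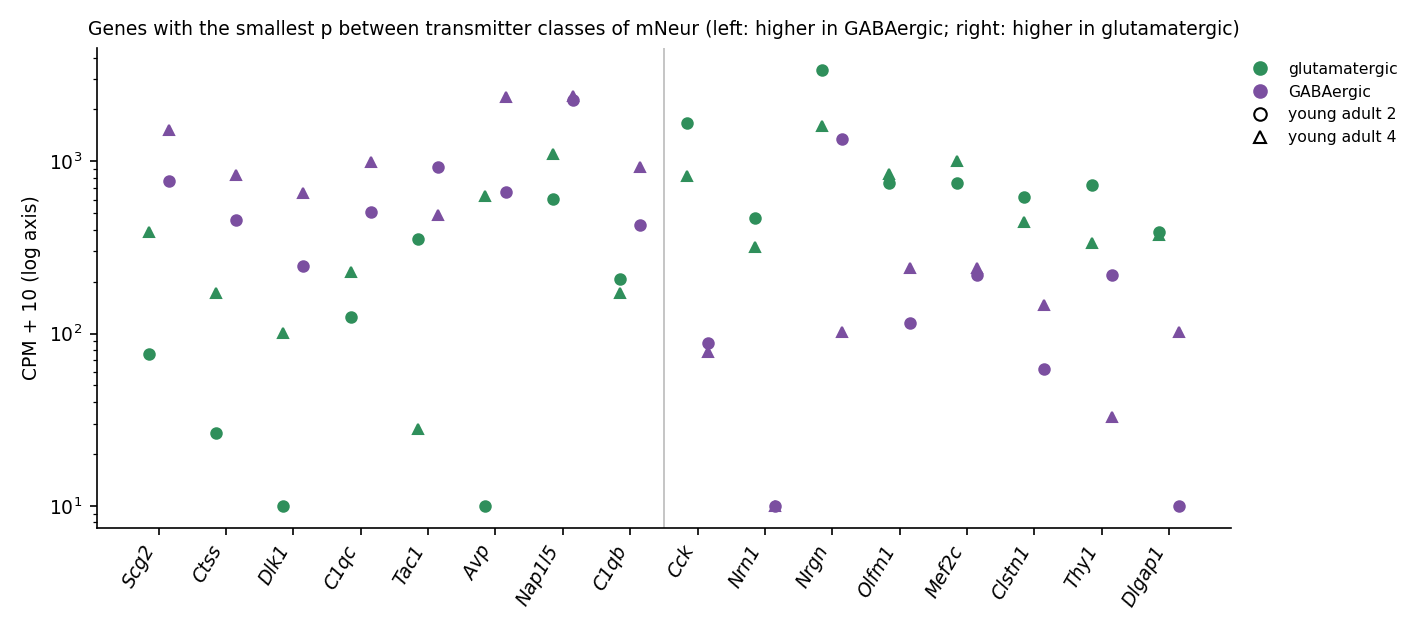
CPM + 10 on a log axis for the 8 genes per direction with the smallest *P* between transmitter classes. Green symbols are glutamatergic and purple symbols GABAergic mNeur, circles young adult library 2 and triangles young adult library 4; *Cck* lies at 814 and 1659 CPM in the glutamatergic and at or below 78.6 CPM in the GABAergic sums.

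Most neuropeptide genes were found in few mNeur. *Cck* was the most widely found, in 99 mNeur over 7 libraries, 47 of them with 5 or more UMIs, and the other peptide genes with a UMI were found in 1 to 34 cells. *Avp* was found in 34 mNeur (1101 UMIs, 28 cells with 5 or more), in 7 of 9 libraries, and in no imNeur. In all other types it was found in at most 0.289% of cells. *Avp* was at 5023, 844 and 1580 CPM in young adult libraries 1, 2 and 4, 784 and 1123 CPM in aged libraries 2 and 4, and 0, 2262 and 1554 CPM in exenatide-treated aged libraries 1, 2 and 4, so the groups overlapped. *Tac2*, which encodes neurokinin B, was found in 10 cells, all of young adult library 2. For *Sst*, which encodes somatostatin, 132 of 176 UMIs came from 1 cell of young adult library 2. Likewise 1 cell held 84 of 105 UMIs of *Pomc*, 70 of 72 of *Npy*, 33 of 36 of *Vip*, 20 of 20 of *Trh* and 57 of 114 of *Cartpt*. For *Sst* and these 5 genes a difference in level between libraries can therefore rest on 1 or a few captured cells. *Hcrt*, *Ghrh*, *Gnrh1*, *Ucn* and *Qrfp* were at 0 in all mNeur, and 24 of the 29 peptide genes in the files had a UMI.

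The mNeur were divided into 10 clusters, which are described by their leading genes and given no cell type names. Their sizes and genes are a description, since the genes that lead a cluster also made it, and 6 groupings were inspected before 1 was kept. Over 4 of the other groupings, 92.9 to 100% of the cells of clusters 1, 7, 9 and 10 stayed together, but as few as 53.8% of cluster 6, 63.9% of cluster 2 and 67.7% of cluster 3. Cells also stay together where clusters merge: in 1 grouping clusters 1 and 3 shared a cluster of 143 cells, and in another the 9 cells of cluster 10 lay in a cluster of 53. Cluster 1 (98 cells) and cluster 3 (65 cells) shared *Reln*, found in 87 of 98 and 42 of 65 cells, and *Ndnf*, a secreted factor of neurons, found in 82 of 98 and 39 of 65. They divided along the batch, with 95 of 98 cells of cluster 1 and none of cluster 3 from batch 4. *Emx2*, *Nhlh2*, *Lhx1* and *Trp73* led cluster 1, and *Cited2*, *Sox4*, *Ramp1* and *Cacna2d2* were among the leading genes of cluster 3. The batch and any difference between these clusters cannot be told apart.

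Cluster 2 (72 cells) was led by *Igfbp6*, *Arpp21*, *Neurod6*, *Nrgn* and *Chn1*, and *Slc17a7* was found in 39 of its cells. *Neurod6* encodes a transcription factor of cortical and hippocampal pyramidal neurons, and the cluster held 83.4% of the *Nrgn* UMIs and 50.8% of the *Snap25* UMIs of all mNeur. Of its classed cells, 43 were glutamatergic and 6 GABAergic. Cluster 4 (43 cells) was led by *Avp*, *Syt10*, *Dlk1*, *Prokr2*, *Six6* and *Six3*. *Syt10* and *Prokr2* are known from the suprachiasmatic nucleus, the hypothalamic pacemaker, and *Six6* and *Six3* from the developing hypothalamus. *Avp* was found in 27 of the 43 cells with 888 of its 1101 UMIs, *Scg2* in 40, and 21 of the 22 classed cells were GABAergic. Cluster 5 (36 cells) was led by *Gpx3*, *Gad2* and *Nrsn2*, with 23 GABAergic and 4 glutamatergic cells, and it held 89.2% of the *Sst* UMIs, 132 of them in 1 cell.

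Some cells of the annotation stood apart from its markers. Cluster 8 (13 cells, 10 of batch 4) was led by *Cga*, *Apoc3*, *Chga*, *Tshb* and *Pitx1*, of which *Cga*, *Tshb* (the beta subunit of thyrotropin) and *Pitx1* are known from the pituitary. In it *Syt1* was found in 0 of 13 cells, *Snap25* in 5, *Meg3* in 6 and *Snhg11* in 3. Cluster 9 (12 cells) was led by *Pde6g*, *Gnb3*, *Spink4*, *Sag* and *Cplx3*; *Pde6g*, *Gnb3* and *Sag* encode parts of the phototransduction cascade, which is also known from the pineal gland. In it *Snap25* was found in 11 of 12 cells and *Snhg11* in 2. Of these 12 cells, 9 came from the exenatide-treated aged libraries, 5 of them from library 1. Cluster 10 (9 cells, 8 of young adult library 2) was led by *Gm5741*, *Gng8*, *Tac2*, *Necab2* and *Pou4f1*, and all 9 cells were glutamatergic; *Pou4f1* encodes a transcription factor of the medial habenula and sensory neurons.

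Clusters 6 (26 cells) and 7 (24 cells) were led by genes of other cell types. Cluster 6 was led by *Gpr37l1*, *Cldn10*, *Ptprb* and *Gja1*, with 2 astrocyte markers in its top 10 genes and the endothelial marker *Flt1* among its next 5, and cluster 7 by *Fcrls*, *Lyz2*, *Ctss* and *C1qc*, with 2 microglial markers. Both still carried neuronal genes: *Snhg11* was found in 25 of 26 and 23 of 24 cells, *Meg3* in 26 and 23, and *Reln* in 9 and 13. Their median depths, 2582 and 2361 UMIs, were above the 1615.5 UMIs of all mNeur. Together they made up 0%, 15.1% and 19.4% of the mNeur of young adult libraries 1, 2 and 4, 4.88% and 0% of aged libraries 2 and 4, and 0%, 9.76% and 15.6% of exenatide-treated aged libraries 1, 2 and 4.

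**Figure D4:**
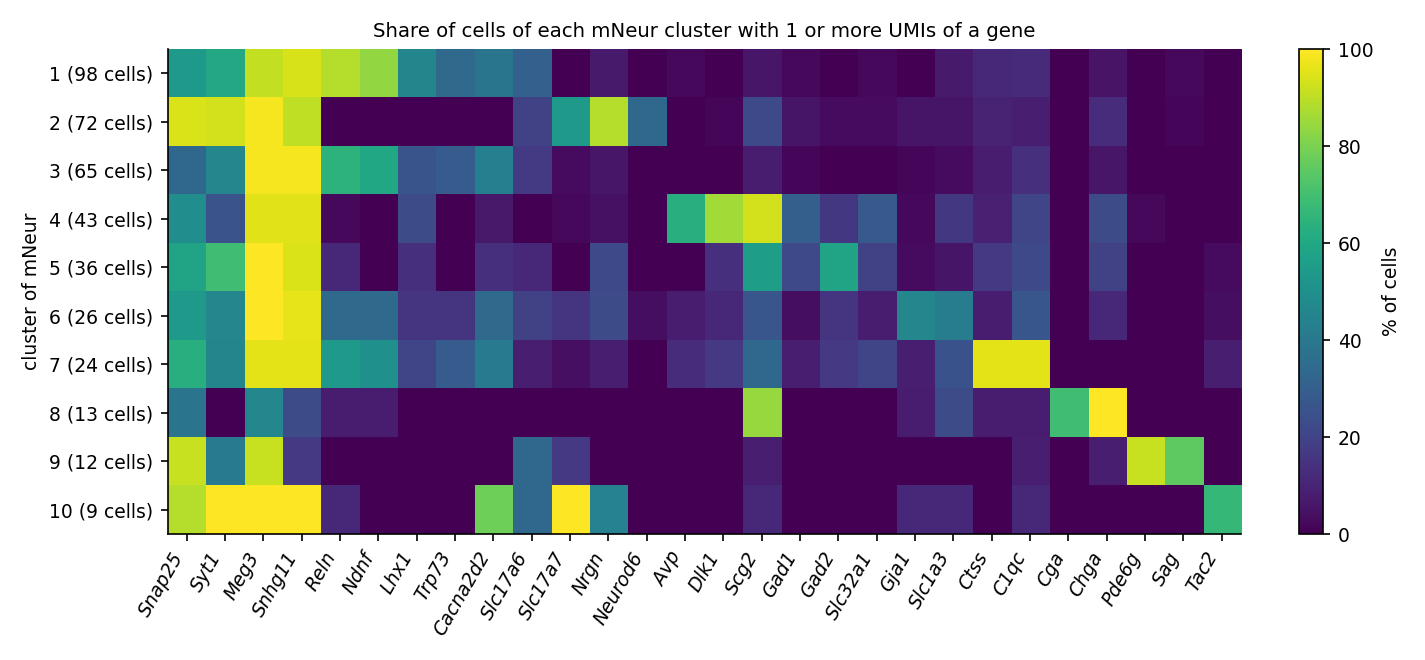
Share of the cells of each mNeur cluster (rows, with the number of cells) that had 1 or more UMIs of a gene (columns), from 0 to 100%. *Reln* and *Ndnf* fill clusters 1 and 3, *Avp* and *Scg2* cluster 4, *Ctss* and *C1qc* cluster 7, *Cga* and *Chga* cluster 8 and *Pde6g* cluster 9, and *Syt1* is at 0% in cluster 8.

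Markers of endothelial cells, microglia and astrocytes had UMIs in the mNeur of all 8 libraries, and *Cst3* (mean 2982 CPM), *Bsg* (1254 CPM) and *Ttr* stood above *Snap25* (922 CPM). All 8 endothelial markers, all 8 microglial markers and all 8 astrocyte markers had a UMI in mNeur, with *Bsg*, *Cst3* and *Slc1a2* the most abundant of each list. The 8 microglial markers together held 3881 UMIs, 1911 of them in cluster 7, and the 8 astrocyte markers 885, 390 of them in cluster 6. In sum they stood at 3130, 4540 and 9774 CPM (microglial) in young adult libraries 1, 2 and 4, at 3080 and 1335 CPM in aged libraries 2 and 4, and at 2470, 2987 and 4143 CPM in exenatide-treated aged libraries 1, 2 and 4. The 8 endothelial markers summed to 1582, 2888 and 2493 CPM, to 1098 and 1077 CPM, and to 1926, 2646 and 1353 CPM in that order. Young adult libraries 2 and 4 were thus highest or among the highest for both lists and the aged libraries lowest for the endothelial one. Oligodendrocyte markers were near the floor, with *Cldn11* and *Mog* at 0. *Ttr*, the transthyretin gene of the choroid plexus, averaged 2571 CPM, and the haemoglobin gene *Hbb-bs* was at 2481 CPM in aged library 2, where 1 cell held most of its UMIs.

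*Reln* (chr5:21884454-22344702, minus strand), *Trp73*, *Lhx1*, *Lhx5*, *Ndnf* and *Cacna2d2* are genes known together from Cajal-Retzius neurons, the early-born reelin-secreting neurons at the surface of the cortex and hippocampus, of which some persist in the adult hippocampus. A UMI of 2 or more of the 6 was found in 163 of 398 mNeur (41.0%), against 1 of 889 imNeur (0.112%). By library the share of mNeur ranged from 18.3% in young adult library 2 to 63.6% in aged library 4. This range leaves out aged library 1 with its single mNeur. The genes occurred in the same cells. Of 158 cells with *Reln* 126 (79.7%) had *Ndnf*, against 17 of 240 cells without *Reln* (7.08%), and of 64 cells with *Trp73* 59 (92.2%) had *Reln*, against 99 of 334 without *Trp73* (29.6%). The 163 cells were shallower than the other mNeur (median 1337 against 1947 UMIs). Clusters 1 and 3 also held 163 cells, and 135 cells (82.8% of either set) were in both. Of the 163 cells 44 were glutamatergic and 5 GABAergic. *Trp73* was also found in 7.96% of ependymal cells and *Ndnf* in 7.52% of endothelial cells, whereas *Lhx1* was found in at most 0.394% of the cells of any other type.

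Cells with 2 or more of the 6 genes were 54.5%, 18.3% and 43.7% of the mNeur of young adult libraries 1, 2 and 4, 41.5% and 63.6% of aged libraries 2 and 4, and 45.5%, 36.6% and 56.3% of exenatide-treated aged libraries 1, 2 and 4. Within batches 2 and 4 the young adult library was lowest, but over all libraries the groups overlapped.

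The comparison of aged with young adult mice asked which genes change in mNeur with age. None of 1666 genes tested was a differentially expressed gene (DEG, 0.00%) in the fit without a batch term, by the edgeR quasi-likelihood test, and 20 (1.20%) had an unadjusted *P* below 0.05; DESeq2 called 0 as well, with a smallest adjusted *P* of 0.05606. The batch numbers pair the libraries. With the batch as a block, 6 of 1666 genes (0.360%) were DEGs, all lower in aged mNeur, and 79 (4.74%) had an unadjusted *P* below 0.05, 58 of them lower (3.48% of all genes) and 21 higher (1.26%). The 6 were the peptide genes *Sst*, *Tac1* and *Cartpt*, and *Apoe*, *Cldn5* and *Selenop*. Leaving out 1 library of the blocked fit moved the count between 0 (without young adult library 2) and 15 (without young adult library 1 or aged library 2), so the list leaned on single libraries; it was 3 without young adult library 4 and 10 without aged library 4.

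The peptide genes rested on few cells. *Sst* and *Cartpt* passed the filter on low counts through the young adult libraries alone, and *Tac1* through 1 young adult and 1 treated library, so that a lower value in aged mNeur was the only difference these genes could show. *Sst* (chr16:23889573-23890958, minus strand) was at 482, 832 and 99.1 CPM in young adult libraries 1, 2 and 4, at 57.0 and 0 CPM in aged libraries 2 and 4, and at 0, 14.2 and 0 CPM in exenatide-treated aged libraries 1, 2 and 4, with an *lnFC* of −2.77 ± 0.49 (SE) for aged minus young adult in the blocked edgeR fit (FDR-adjusted *P* = 0.001502) and −2.69 without the block. It came from 1, 4 and 2 young adult cells and 1 aged cell, and outside the cell with 132 UMIs young adult library 2 held 6. *Tac1* was at 0, 362 and 136 CPM in young adult libraries and had no UMI in the aged ones; it was at least 7.52-fold higher in young adult than in aged libraries against a floor of 3 counts over both aged libraries (blocked edgeR FDR-adjusted *P* = 0.006313), and came from 13 cells of young adult library 2 and 5 of library 4. *Cartpt* was at 378, 151 and 334 CPM in young adult libraries, from 1, 5 and 4 cells, and had no UMI in the aged ones, which gives at least 13.0-fold (blocked edgeR FDR-adjusted *P* = 0.0243). The young adult libraries lay above the aged ones for *Sst* and *Cartpt* but not for *Tac1*, which was at 0 in young adult library 1. *Sst* without the block had a *P* of 0.005304 and *Cartpt* of 0.0005469, both above the threshold after adjustment.

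*Apoe*, *Cldn5* and *Selenop* are best known from other cells: apolipoprotein E from astrocytes and microglia, claudin-5 from the tight junctions of endothelial cells, and selenoprotein P as a secreted carrier of selenium. *Apoe* was at 275, 1941 and 1778 CPM in young adult libraries 1, 2 and 4 and at 456 and 379 CPM in aged libraries 2 and 4 (*lnFC* −1.47 ± 0.26 with the block, edgeR FDR-adjusted *P* = 0.001502; −1.17 without it). *Cldn5* was at 172, 422 and 287 CPM against 57.0 and 75.9 CPM (*lnFC* −1.66 with the block, edgeR FDR-adjusted *P* = 0.04088). *Selenop* was at 68.8, 217 and 443 CPM against 71.3 and 30.4 CPM (*lnFC* −1.78, edgeR FDR-adjusted *P* = 0.04088). *Cldn5* and *Selenop* passed the filter on low counts through young adult and treated libraries and in no aged one. A gene at their aged level could therefore be tested only if it was higher in another group. Young adult library 1 lay below both aged libraries for *Apoe* and between them for *Selenop*, whereas for *Cldn5* the groups did not overlap. Clusters 6 and 7, 12.6% of the mNeur, held 65.3% of the *Apoe* UMIs, 50.6% of those of *Cldn5* and 71.2% of those of *Selenop*. Without these clusters the blocked fit kept *Sst*, *Tac1* and *Cartpt* as its 3 DEGs, and the *lnFC* of *Apoe* was −0.52 and that of *Cldn5* −1.01, neither a DEG; *Selenop* did not pass the filter on low counts there. All 5 endothelial and all 5 microglial markers tested were lower in aged mNeur at an unadjusted *P* below 0.05 in the blocked fit, with median *lnFC* of −1.24 and −1.07, beside 3.48% of all 1666 genes lower at that *P* and a median of −0.002.

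No gene rose with age past the threshold in the fit with or without the block. The 8 genes higher in aged mNeur with the smallest *P* in the blocked fit were *Trp73* (*lnFC* 1.30), *Chgb* (0.89), *Ralgps2* (1.08), *AC149090.1* (0.86), *Cib2* (0.99), *Cul5* (1.28), *Ndnf* (0.79) and *Bcl11a* (0.74), with FDR-adjusted *P* by edgeR from 0.6789 to 0.7852. *Trp73* was at 172, 18.1 and 78.2 CPM in young adult libraries 1, 2 and 4, at 128 and 319 CPM in aged libraries 2 and 4, and at 0, 128 and 194 CPM in exenatide-treated aged libraries, so the groups overlapped. Of the 6 Cajal-Retzius genes 5 were tested, and all 5 had an *lnFC* above 0 in both fits. The median was 0.73 beside 0.01 over all genes without the block, and 0.77 beside −0.002 with it. An unadjusted *P* below 0.05 by edgeR was reached by 0 of the 5 without the block and by 2 with it. With the block 1.26% of all genes were higher at that *P*, and none of the 5 was a DEG. *Ndnf* changed sign, to −0.52, without aged library 4, which leaves 1 aged library. *Fcer1g* and *Lyz2*, genes of microglia and macrophages, followed the 6 DEGs among the lower genes.

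**Figure D5:**
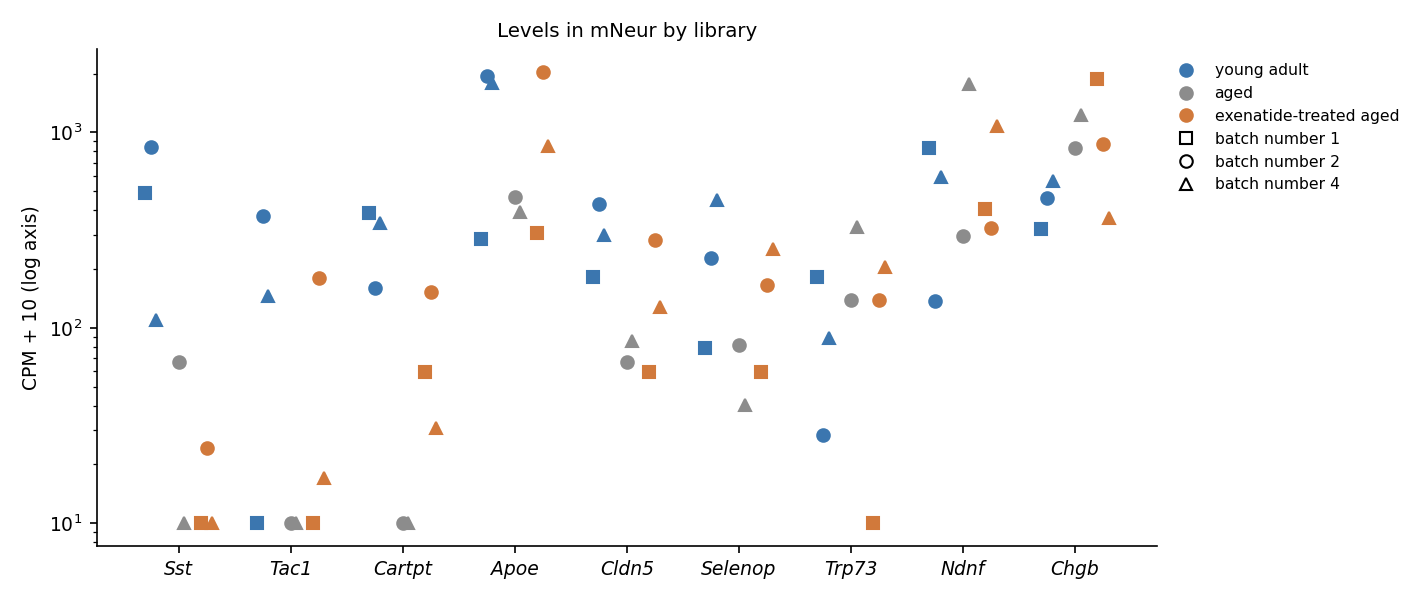
CPM + 10 on a log axis for 9 genes named in the comparison of aged with young adult mNeur, by library (colour, group; shape, batch). *Sst* and *Cartpt* lie higher in all 3 young adult libraries than in both aged ones, *Apoe* lies high in young adult libraries 2 and 4 and in exenatide-treated aged library 2, at 1778 to 2034 CPM, and the groups overlap for *Trp73* and *Ndnf*.

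Without the block, gene groups of neuronal function gave no DEG with age. With it, 3 of 5 neuropeptide genes tested were DEGs, beside 0.360% of all genes: *Sst*, *Tac1* and *Cartpt*, described above. These 3 passed the filter on low counts in no aged library, so a lower value in aged mNeur was the only difference they could show. Since 5 of 32 listed peptide genes were tested, the count is no result about the list. Of 20 identity genes 16 were tested. Without the block 9 had an *lnFC* above 0, with a median of 0.10, and with it 8 did, with a median of 0.001. None reached an unadjusted *P* of 0.05 by edgeR in either fit. *Snap25* had an *lnFC* of 0.12 ± 0.31, *Syt1* of 0.52 ± 0.45 and *Meg3* of 0.26 ± 0.37 without the block. Of 26 genes of vesicle release 19 were tested, 11 above 0 with a median of 0.12, and 6 above 0 with a median of −0.08 when the batch was a block. Ribosomal genes had a median of 0.12 (63 of 80 above 0), mitochondrially encoded genes of 0.17 (9 of 13) and nuclear respiratory chain genes of −0.06 (26 of 71), none of them a DEG. With the block the median of the mitochondrially encoded genes turned to −0.05 (4 of 13 above 0). Of 20 immediate early and heat shock genes 12 were tested, 2 above 0 and 2 lower at an unadjusted *P* below 0.05 with the block, beside 827 of 1666 genes above 0 and 3.48% lower at that *P* among all genes tested. Of 20 genes linked to neurodegeneration 14 were tested, and 1 of them, *Apoe*, was a DEG in the blocked fit, beside 0.360% of all genes. The 3 genes of the GABAergic list did not pass the filter on low counts.

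Exenatide-treated aged mice were compared with aged mice to see what the treatment changes in mNeur; both comparisons share the aged libraries. None of 1666 genes (0.00%) was a DEG, with or without the block, by the edgeR quasi-likelihood test. With the block 47 genes (2.82%) had an unadjusted *P* below 0.05, 35 higher (2.10%) and 12 lower (0.720%), and 18 (1.08%) without it; DESeq2 also called 0. *Apoe* came nearest, at 296, 2034 and 840 CPM in exenatide-treated aged libraries 1, 2 and 4 against 456 and 379 CPM in aged libraries 2 and 4 (*lnFC* 1.22 ± 0.27 with the block, edgeR FDR-adjusted *P* = 0.06967), with library 1 below both aged libraries. Clusters 6 and 7, which hold most of its UMIs, were 9.76% and 15.6% of exenatide-treated aged libraries 2 and 4 and 4.88% and 0% of the aged ones. The other genes with the smallest *P* in the blocked fit were higher for *Lyz2*, *Spink4*, *Tac1*, *Cplx3*, *Selenop*, *Cadm2* and *Slirp*, with *lnFC* from 1.16 to 4.66, and lower for *Chga*, *Nrsn1*, *Txnl4a*, *Diablo*, *Nrn1*, *Zranb2*, *Ccdc124* and *Psmd6*, with *lnFC* from −0.73 to −1.97. Of the 5 endothelial markers tested 4 had an *lnFC* above 0 in the blocked fit, with a median of 0.65, and 3 were higher at an unadjusted *P* below 0.05. All 5 microglial markers tested were above 0, with a median of 0.54 and 1 higher at that *P*. Over all genes 863 of 1666 were above 0, with a median of 0.01, and 2.10% were higher at that *P*; no marker of either list was a DEG.

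*Spink4* and *Cplx3* were again genes of few cells. Both passed the filter on low counts through the treated libraries alone. A higher value there was therefore the only difference they could show. *Lyz2*, *Tac1*, *Selenop* and *Slirp* also passed the filter in no aged library. Genes at such aged levels could be tested only where another group was higher. *Spink4* was at 1037, 157 and 97.2 CPM in exenatide-treated aged libraries 1, 2 and 4 and at 0 in both aged libraries, at least 19.5-fold higher against 3 counts over the aged libraries, and its 49 UMIs came from 9 cells, all in cluster 9. *Chga*, which encodes chromogranin A, was at 0, 99.6 and 55.5 CPM against 556 and 410 CPM, and 88.4% of its UMIs came from the 13 cells of cluster 8, of which the aged libraries held 2 and the exenatide-treated libraries none. *Slirp*, which encodes an RNA-binding protein of mitochondria, was at 543, 256 and 208 CPM against 42.8 and 121 CPM, without overlap. It was found in 124 cells and no cell held more than 4 of its 152 UMIs (*lnFC* 1.16 ± 0.41 with the block, edgeR FDR-adjusted *P* = 0.9983). The 5 Cajal-Retzius genes tested all had an *lnFC* below 0, with a median of −0.47 beside −0.01 over all genes without the block. None reached an unadjusted *P* of 0.05 by edgeR in either fit. Of 17 genes of GLP-1 receptor and cyclic AMP signalling in the files, 15 had a UMI in mNeur and 3 could be tested, 2 with an *lnFC* above 0. *Glp1r* itself, the target of exenatide, is not among the 19746 genes of the files used here.

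Whether age acted differently on mature and immature neurons was tested as a difference of the age effects, with the library as a block. None of 2280 genes (0.00%) passed by the edgeR quasi-likelihood test, and 92 (4.04%) had an unadjusted *P* below 0.05, 56 higher in mNeur (2.46%) and 36 lower (1.58%). *Spock2*, a proteoglycan of the extracellular matrix, and *Enpp2*, which encodes autotaxin and is a choroid plexus marker, were nearest (edgeR FDR-adjusted *P* = 0.06883 for both). *Spock2* was at 482, 464 and 303 CPM in young adult and 485 and 334 CPM in aged mNeur, and at 516, 528 and 329 CPM in young adult and 62.6 and 20.2 CPM in aged imNeur (difference of *lnFC* 2.58 ± 0.56). It therefore overlapped between ages in mNeur and did not in imNeur. *Enpp2* was at 34.4, 133 and 261 CPM against 28.5 and 15.2 CPM in mNeur, and at 94.97, 75.4 and 583 CPM against 157 and 858 CPM in imNeur (difference −2.58 ± 0.59).

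The share of mNeur among all cells did not separate the groups. It averaged 0.466 ± 0.315% in aged and 0.617 ± 0.438% in young adult libraries (SD, n = 3 each), a difference of −0.151 percentage points (exact two-sided permutation *P* = 0.6, smallest possible 0.1). Within batches 1, 2 and 4 the aged library was lower each time, with differences of −0.0422, −0.326 and −0.0855 points, and the exact sign-flip permutation test of the paired differences gave *P* = 0.25, its smallest value. Exenatide-treated aged libraries averaged 0.406 ± 0.252%, −0.0603 points from the aged ones (exact permutation *P* = 0.6), with 0.00862, −0.138 and −0.0516 points within batches. Among neuronal cells only (mNeur, imNeur and neuronal restricted precursors), the mNeur share was 13.4%, 34.1% and 12.0% in young adult libraries 1, 2 and 4, 11.1%, 45.1% and 31.1% in aged libraries, and 26.2%, 42.3% and 28.3% in exenatide-treated aged libraries. The mean difference with age reversed to 9.26 points higher, but the 11.1% of aged library 1 was 1 of 9 neuronal cells. Within batch 1 the aged library was lower, and within batches 2 and 4 it was higher.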

How the data were processed

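The authors aligned reads of 10x Chromium 3' version 2 libraries with Cell Ranger 3.0.0 to mm10 and clustered and annotated the cells in Seurat 3.0.1, after removing extreme cells and clusters with markers of 2 types; no doublet caller was run here. Values in the deposited matrix are on a natural log scale, of 1 plus the UMIs of a gene scaled to a fixed total per cell; the deposited table of cells gives total UMI counts, gene counts and the mitochondrial fraction per cell. Whole UMI counts, which the planned test needs, were recovered from them: all 58404382 entries were whole within 1e-06. The authors counted UMIs without a strand setting given in the sources used here.

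Counts of mNeur were summed per library with 10 or more cells and tested with edgeR 4.0.16 in R 4.3.3 (quasi-likelihood, robust, TMM, filterByExpr, Benjamini-Hochberg), on all 3 groups together. DEGs had an FDR below 0.05 and an absolute *lnFC* (natural log) above 0.1. Alternatives were DESeq2 1.42.0, limma 3.58.1 on the mean deposited log values, other filters and scalings, fewer or other cells, and each library left out. The fits were tested on simulated data with 200 changed genes. The numbers 1, 2 and 4 are batches of the deposited table and pair the libraries: deviations from group means correlated at 0.110 to 0.502 between libraries of the same number and at −0.502 to 0.280 between libraries of different numbers; with 2 aged libraries, their deviations mirror each other. Levels are CPM without TMM scaling. Intervals are exact binomial at 95% and, like the floor of 3 counts, cover counting error only.

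Named genes were the markers, examples of 31 gene lists by mean CPM or smallest *P*, the 8 genes per direction with the smallest *P* in the blocked fit, 15 and 10 genes by ratio to imNeur, and 12 per direction between classes. *Hbb-bs*, *Elavl3*, *Neurod1*, *Tbr1* and peptides held by 1 cell, and the genes described within clusters, were named after their values were seen. The members, lists and tests were chosen with earlier results of these data known. Clusters came from the Leiden method (leidenalg 0.10.2; 12 neighbours, 15 components, 1500 variable genes, resolution 0.8, genes in 5 or more cells). Of 6 settings tried, the first was kept after all had been seen, with no criterion set beforehand. Gene positions are from GENCODE on GRCm38 (mm10). Some genes that met the rule for named genes are not reported here.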

Additional observations from a re-analysis of the deposited data

How the results depend on the processing

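Counts of DEGs were small and moved with the processing. With age (0 without the block) there were 6 with the replicate block, all lower in aged, 6 with no filter on low counts (3 higher, 3 lower), and 0 to 3 when each library was left out; the blocked fit gave 3 without clusters 6 and 7, and 0 to 15 (0, 3, 10, 15 and 15) when each library was left out. With exenatide (0) there were 8 with no filter (4 higher, 4 lower), 0 to 3 when each library was left out, and 0 to 7 (0, 1, 4, 4 and 7) in the blocked fit without each library; the block itself changed no call there. Without cells holding *Reln*, *Trp73*, *Lhx1*, *Lhx5* or *Ndnf* there were 3 in either comparison, all higher with age and all lower with exenatide. Without aged library 2 or 4 the aged arm was 1 library, assumed to vary like the other groups; the counts above 0 in the unblocked fits without a library (1 and 3 in either comparison) were from these fits, as were 15 (without aged library 2) and 10 with age and both counts of 4 with exenatide in the blocked ones. The difference of age effects (0) gave 1 with no filter and 0 to 5 when each library was left out, the 5 without aged library 2. The 51 genes between transmitter classes became 0 without the library term, 2 by DESeq2 and 31 with 5 or more cells per class. The alternatives without clusters 6 and 7, without the *Reln* group of genes and the blocked fits without a library were chosen after seeing the data.

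Differences of shares changed sign. For mNeur with age (−0.151 points) they were 9.262 among neuronal cells and −0.385 to 0.049 when each library was left out, with 0.049 without young adult library 2 and 0.028 without aged library 1. With exenatide (−0.0603) they were 3.160 among neuronal cells and −0.240 to 0.085 when each library was left out, with 0.052, 0.007 and 0.085 without aged library 2, aged library 4 and exenatide-treated library 1. The GABAergic difference with exenatide (1.36) was −1.894 after thinning to 500 UMIs and −2.151 to 4.867 when each library was left out, with −2.151 without aged library 2 and −0.792 without exenatide-treated library 2. Of single genes, *Ndnf* with age was −0.5184 to 1.3709 when each library was left out, the lowest without aged library 4, and *Chga* with exenatide 0.1158 in cells with 2 or more markers. Of the 899 alternative values, those of comparisons kept their direction and size in 56 cases, moved in 24 and reversed in 10; those of single genes kept their direction and side of the threshold in 713 cases, lost a call at the threshold in 50, gained 1 in 44 and reversed in 2.

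The fit between classes with 2 or more UMIs of the class genes was not run, since 1 library was left, and leaving out each library there could not be fitted. Limits are the 1 mNeur of aged library 1, the 2 aged libraries, sums as low as 20246 UMIs, and cells taken from a vascular protocol. With 11 to 103 cells per library, genes of rare cells, such as *Sst*, cannot be told apart from the chance of capture. The filter kept 1666 genes, so most transmitter, receptor and channel genes were not tested.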

Other observations

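Gene groups known from brain regions were also set against imNeur, as a description with no test. Of 12 genes known from hypothalamus, thalamus or midbrain 11 had the higher mean CPM in mNeur, with a summed mean of 1646 CPM against 221 CPM in imNeur, and of 9 striatal genes 8 did (385 against 49.1 CPM). Of 10 genes of cortex and hippocampus 8 had the higher mean (740 against 260 CPM). The 10 genes of the olfactory bulb were the exception, with the lower mean in mNeur for 6 and the higher for 3, and sums of 2295 and 2567 CPM. The share of all genes with the higher mean in mNeur was 57.5%.

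Of 20 genes linked to neurodegeneration 17 had the higher mean in mNeur, among them *Itm2b*, which encodes a membrane protein mutated in familial dementias, at 1283 CPM against 642 CPM. Metallothionein and oxidative stress genes were divided, with 8 of 16 higher and 8 lower. Immediate early and heat shock genes had the higher mean for 8 of 20, and antigen presentation and interferon genes for 2 of 19. The histaminergic gene *Hdc* was found in 4 mNeur and the glycine receptor gene *Glra1* in 1.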
